A study of Mus musculus with 764 samples.

Results

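The cells described here are IL-10 reporter-positive CD4+ T cells of mouse spleen that lay on plate p1, split by the plate into wells of columns 1-12 and wells of columns 13-24. The tables held 382 p1 spleen cells of 764 cells in all. A cell was kept when its reads over the gene rows summed to at least 160000, which left all but 11 cells of columns 1-12 and all but 6 of the 190 cells of columns 13-24, together 365 p1 cells. The p1 cells nearest to this minimum had 159010 reads, just under it, and 161141 reads, just over it. No cell was removed for its cell-cycle phase. The comparison asks which genes, beyond Foxp3, differed between the wells of a single plate that carry the same label.

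All cells came from mice that report Il10 by eGFP and Foxp3 by mRFP and that had been injected on 2 occasions with an antibody against CD3 (clone 2C11) and killed within hours of the last injection. Every group therefore shared the reporters and the treatment, and no untreated cells were part of the comparison. Single IL-10 producing CD4+ T cells were sequenced after SMART-seq2, a full-length protocol without molecular identifiers. The study included Foxp3-expressing IL-10 producers as a control, but the labels give neither a sort gate nor an animal for a well. Each set of wells was therefore 1 sample, no test was possible, and the sort, the animal and the well position cannot be told apart.

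Regulatory T cells are CD4+ T cells that restrain immune responses, and the transcription factor Foxp3 is required for their identity. They carry high levels of the interleukin-2 receptor alpha chain and of several costimulatory receptors of the TNF receptor family, and some make IL-10. IL-10 is also made by CD4+ T cells without Foxp3, among them T helper cells and type 1 regulatory T cells.

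Kept cells had between 161141 and 538768 reads in columns 1-12, with a median of 362530, and between 162801 and 526166 in columns 13-24, with a median of 353926. The median cell had reads of 3541 genes on the left side (columns 1-12) and 3495 on the right (columns 13-24). At least 10 reads of the proliferation genes Mki67 or Top2a were present in 48.6% and 45.1% of cells. The label of CD4+ T cells matched the markers in both sets. Cd3e, a chain of the T cell receptor complex, had at least 10 reads in 100% of cells of both, and Cd4 in 98.9% and 98.4%. Il10 had at least 10 reads in 88.4% and 81.5% of cells, at mean levels of 1790.3 and 1720.1 CPM (the reads of a gene scaled to a library of 1000000 gene reads).

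Foxp3 set the well sets apart. Over the cells of columns 1-12 it ranged from 0 to 1743 CPM with a median of 209.9 CPM, and over columns 13-24 from 0 to 1598 CPM with a median of 0 CPM. The ranges over cells overlapped, while the median cell expressed Foxp3 on one side of the plate and had no Foxp3 read on the other. Mean levels were 268 CPM (SD over cells 319.6) and 73.03 CPM (SD 228), a log2 ratio of 1.86. Log2 ratios are of mean CPM in columns 1-12 over columns 13-24 after adding 1 CPM to each mean.

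At least 10 Foxp3 reads were present in 57.5% of the cells of columns 1-12 (exact binomial 95% interval 49.9 to 64.8%) and in 15.2% of those of columns 13-24 (28 cells, 10.4 to 21.2%). The intervals do not overlap, but they cover counting error only, and reads copied by PCR are not independent molecules. No Foxp3 read was found in 34.3% (62 cells) and 77.7% of cells. Few cells lay between these classes, with 1 to 9 reads in 15 and 13 cells. Among cells with at least 10 reads the level itself was similar, at a median of 421 CPM in columns 1-12 and 376 CPM in columns 13-24. The sets thus differed in how many cells expressed Foxp3 more than in how much an expressing cell held.

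The difference was present along the plate and not in a single column of wells. Across the 12 well columns on the left, the share of cells with at least 10 Foxp3 reads ran from 33.3% to 87.5% with a median of 53.3%. Across the 12 on the right it ran from 0% to 31.3% with a median of 16.04%. The lowest left column was above the highest right column. By well row the shares were 36.4% to 83.3% on the left and 0% to 27.3% on the right, again without overlap. Foxp3 was the 1 gene of 8760 with a range over left columns wholly above that over right columns (0.0114%), and 0 genes (0%) lay wholly below. Well columns of 1 plate are not replicates of a condition, so this is a description of the layout.

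**Figure D1:**
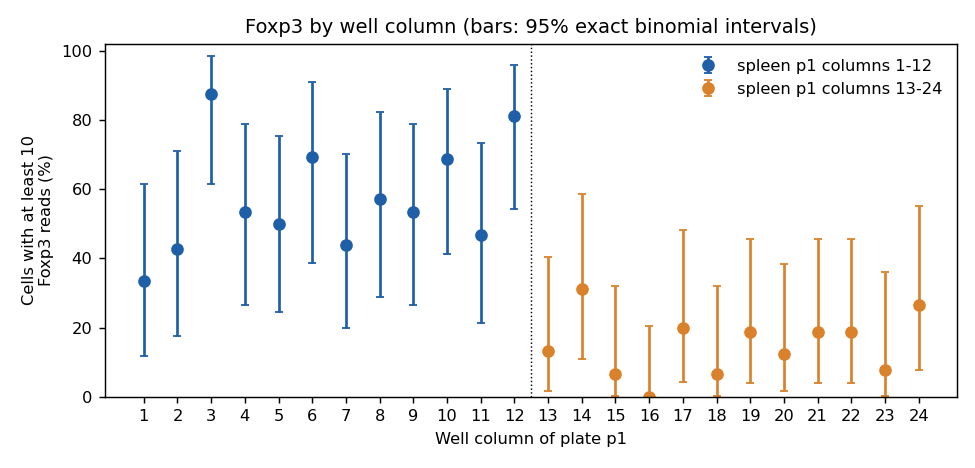
Share of kept cells with at least 10 Foxp3 reads (y axis, percent) in each well column of plate p1 (x axis), with exact 95% binomial intervals as bars. Columns 1-12 (blue) lie between 33.3% and 87.5%, and columns 13-24 (orange) between 0% and 31.3%.

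The other 3 markers of regulatory T cells were higher in columns 1-12, each by less than 2-fold in mean level. Il2ra, the high-affinity chain of the interleukin-2 receptor, ranged from 0 to 3782 CPM with a median of 378 CPM on the left and from 0 to 2543 CPM with a median of 126.1 CPM on the right. Its means were 608 and 366 CPM, a log2 ratio of 0.73, and at least 10 reads were present in 71.3% (64.1 to 77.7%) and 53.8% (46.3 to 61.2%) of cells. The ranges over cells overlapped over most of their length, while the intervals of the shares, which cover counting error only, did not overlap. Over well columns the Il2ra shares ran from 50% to 92.3% on the left and from 37.5% to 69.2% on the right, and overlapped. Ikzf2, which encodes the transcription factor Helios, had medians of 106.6 and 0 CPM, means of 293 and 186.9 CPM and a log2 ratio of 0.64. At least 10 Ikzf2 reads were present in 57.5% and 37.5% of cells. Tnfrsf4, which encodes the costimulatory receptor OX40, was the most abundant of the markers in CPM and was detected almost everywhere, in 93.4% and 83.7% of cells. Its means were 3253 and 2119 CPM, with a log2 ratio of 0.62.

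Cells also differed in how many of the 4 markers they carried together. Foxp3, which was known to differ, is 1 of the 4. All 4 could be present only in cells with at least 10 Foxp3 reads, 57.5% on the left and 15.2% on the right. The counts that follow therefore in part restate the Foxp3 difference and support nothing further. The mean number of markers with at least 10 reads per cell was 2.80 (SD over cells 1.16) on the left and 1.90 (SD 0.987) on the right. All 4 markers were present in 64 cells, or 35.4% (28.4 to 42.8%), of columns 1-12 and in 13 cells, or 7.07% (3.82 to 11.8%), of columns 13-24. After every cell was thinned to 160000 reads these shares were 33.1% and 6.52%, so that the gap was nearly as wide at equal depth. In the other sets, which were processed on plate p2, all 4 markers were present in 2.23% of spleen cells and 1.14% of small intestine cells. The values of p2 spleen for Foxp3, 25.997 CPM and 4.47% of cells, lay below both p1 sets.

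**Figure D2:**
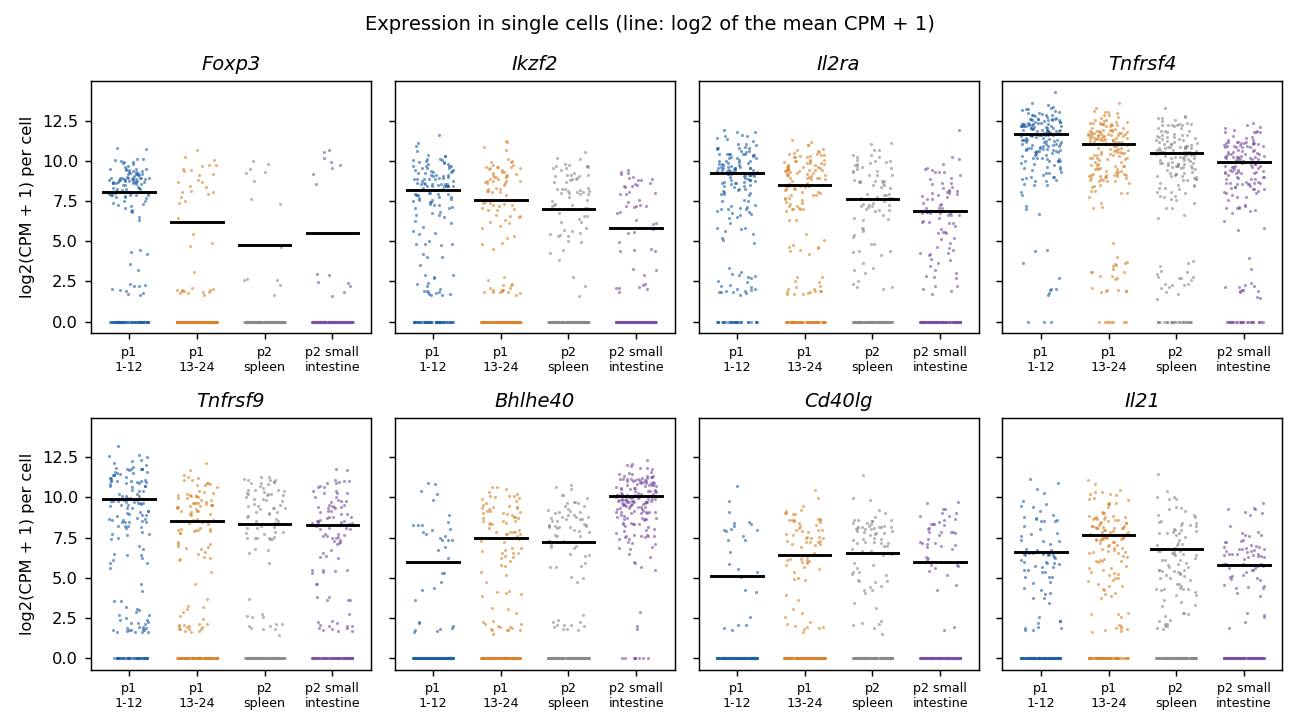
Level per cell as log2(CPM + 1) (y axis) for 8 genes in the 2 p1 well sets, p2 spleen and p2 small intestine (x axis). Each point is a cell and the line marks log2 of the mean CPM + 1. Foxp3 is at 0 reads in 34.3% of cells of columns 1-12 and in 77.7% of columns 13-24, while Bhlhe40, Cd40lg and Il21 are detected in more cells of columns 13-24.

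Across all genes the well sets were close. Of 23997 gene rows, 8760 had a mean of at least 10 CPM in either set. Their median log2 ratio was -0.003, with quartiles of -0.24 and 0.22. At least 2-fold higher in columns 1-12 were 226 genes (2.58%), and at least 2-fold lower were 270 genes (3.08%), 5.66% in all. Most of these calls rested on few cells, since 58.8% of the higher and 64.8% of the lower genes had at least 10 reads in under 10% of the cells of the set where they were higher. Only 28 of the higher and 33 of the lower genes had at least 10 reads in 20% or more of those cells.

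**Figure D3:**
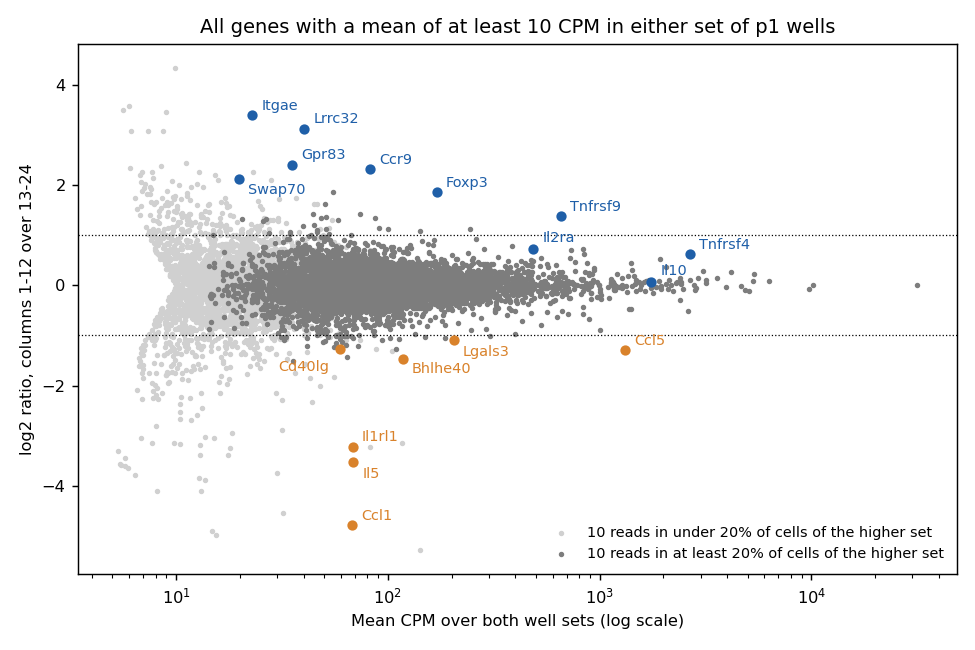
Log2 ratio of mean CPM, columns 1-12 over 13-24 (y axis), against the mean CPM over both sets (x axis, log scale) for 8760 genes. Dotted lines mark 2-fold. Dark grey points are genes with at least 10 reads in at least 20% of cells of the set where they are higher, and their spread narrows with level, so that Tnfrsf9 at 1.38 and Ccl5 at -1.29 stand out among abundant genes.

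The regulatory T cell list held genes at least 2-fold higher in columns 1-12 and none lower. Of 20 listed genes, 19 had a row and 18 passed the level filter. At least 2-fold higher were 8 of the 18, against 2.58% of all tested genes, and 0 were 2-fold lower, against 3.08%. The median log2 ratio of the 18 was 0.69, against -0.003 over all tested genes. In share of cells, 1 of the 18, Foxp3, differed by at least 20 percentage points, a difference met upwards by 0.0571% of all genes. Of the 8, Lrrc32, Itgae and Swap70 passed the level filter only through columns 1-12, where they were high, and Foxp3 was known to differ, so the count and the median describe the tested members and support nothing further. Ikzf4 was not tested, with means of 7.92 and 3.18 CPM.

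Tnfrsf9, which encodes the costimulatory receptor 4-1BB, combined a high level with a large ratio. It ranged from 0 to 9368 CPM with a median of 292 CPM on the left, and from 0 to 4483 CPM with a median of 2.99 CPM on the right. The means were 949 CPM (SD 1482) and 363 CPM (SD 675), a log2 ratio of 1.38, and at least 10 reads were present in 60.2% (52.7 to 67.4%) and 42.9% (35.7 to 50.4%) of cells. The ranges overlapped, and the left set held more cells at the top. In p2 spleen the mean was 331 CPM and in the small intestine 311 CPM.

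The genes with the largest ratios on this list were each detected in a minority of cells. Lrrc32, which encodes GARP, a surface anchor of latent TGF-beta on activated regulatory T cells, had means of 73.2 and 7.48 CPM and a log2 ratio of 3.13. It had at least 10 reads in 31 cells (17.1%, 11.9 to 23.4%) against 7 cells (3.80%, 1.54 to 7.68%). In columns 13-24 the 3 highest cells held 71.7% of the Lrrc32 reads. Gpr83, a G protein-coupled receptor found on regulatory T cells, had means of 60.1 and 10.5 CPM, a log2 ratio of 2.41, and at least 10 reads in 13.8% and 3.80% of cells. Swap70, a signalling protein that binds actin, had means of 32.7 and 6.77 CPM, a log2 ratio of 2.12, and at least 10 reads in 13.3% and 3.26% of cells.

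Integrins of the list followed the same direction. Itgb8, whose product joins an alpha chain to activate latent TGF-beta, had means of 29.8 and 11.4 CPM and a log2 ratio of 1.32. It had at least 10 reads in 20.99% (15.3 to 27.7%) and 6.52% (3.42 to 11.1%) of cells. Itgae, which encodes CD103, an integrin chain that binds E-cadherin, had means of 42.5 and 3.15 CPM and a log2 ratio of 3.39, resting on 15 and 4 cells with at least 10 reads. In the small intestine Itgae stood at 477 CPM, above both p1 sets.

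Klrg1, a receptor of terminally differentiated lymphocytes, was 2-fold higher in mean level only. Its means were 78.3 and 31.1 CPM, with a log2 ratio of 1.31, but at least 10 reads were present in 15 and 12 cells, and the 3 highest cells held 53.3% and 55.95% of its reads.

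The remaining tested members stayed under 2-fold. They include Ctla4, the inhibitory receptor that competes with CD28, at 4564 and 3817 CPM (log2 ratio 0.26), and Icos, a costimulatory receptor, at 3404 and 2788 CPM (0.29). Tnfrsf18, which encodes GITR, was at 1011 and 739.5 CPM (0.45), and Il2rb, the beta chain of the interleukin-2 receptor, at 1618 and 1184 CPM (0.45). Ctla4, Icos and Il2rb had at least 10 reads in over 96% of cells on both sides. Nrp1, which encodes neuropilin 1, was the single tested member with a ratio below 0, at 198 and 241 CPM (-0.28).

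**Figure D4:**
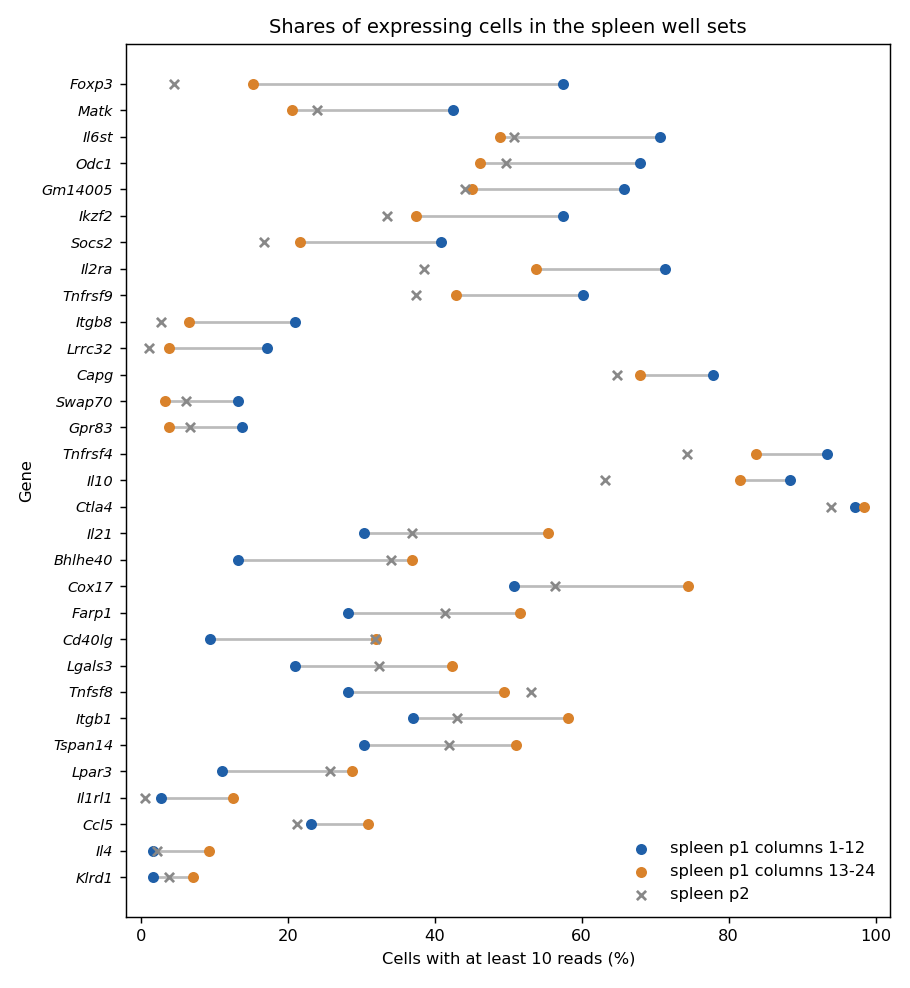
Percent of kept cells with at least 10 reads (x axis) for named genes (y axis) in columns 1-12 (blue), columns 13-24 (orange) and p2 spleen (crosses). Grey lines join the p1 sets. The widest gap is that of Foxp3, from 15.2% to 57.5%, and the widest gap the other way is that of Il21, from 55.4% to 30.4%.

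Over all genes, 5 had a share of cells with at least 10 reads that was 20 points or more higher in columns 1-12, and 9 (0.103%) had one that was 20 points or more lower. The higher genes besides Foxp3 were Matk, a kinase that restrains Src family kinases, Il6st, the shared signalling chain gp130 of the interleukin-6 receptor family, Odc1, the first enzyme of polyamine synthesis, and the unnamed locus Gm14005. Il6st had at least 10 reads in 70.7% against 48.9% of cells, Matk in 42.5% against 20.7%, Odc1 in 67.96% against 46.2% and Gm14005 in 65.7% against 45.1%. Besides Foxp3, Matk was also past 2-fold in mean level, at 125.4 and 56.6 CPM (log2 ratio 1.13).

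Among the 12 genes with the largest ratios toward columns 1-12 that were detected in at least 20% of its cells, Foxp3, Tnfrsf9 and Itgb8 also belonged to the regulatory T cell list. Socs2, a suppressor of cytokine signalling induced through STAT5, had means of 124.7 and 48.9 CPM, a log2 ratio of 1.33, and at least 10 reads in 40.9% (33.6 to 48.4%) and 21.7% (16.01 to 28.4%) of cells. Phlpp1, a phosphatase that acts on AKT, was at 76.9 and 24.4 CPM (log2 ratio 1.62). Elovl6, a fatty acid elongase, was at 74.1 and 28.2 CPM (1.36), and Ecm1, a secreted matrix protein, at 83.5 and 33.1 CPM (1.31). The others were Ncmap (1.86), A630023P12Rik (1.43), Gm4956 (1.42), Tmem62 (1.35) and Ndufaf5 (1.32). At least 10 reads of these 9 genes were present in 20.4% to 40.9% of cells on the left and in 9.78% to 21.7% on the right.

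Genes lower in columns 1-12 included ligands and a regulator of helper T cells. Cd40lg encodes CD40 ligand, through which helper T cells activate B cells and dendritic cells. It ranged from 0 to 1667 CPM on the left and from 0 to 1402 CPM on the right, with a median of 0 CPM in both. Its means were 34.4 CPM (SD 156.3) and 84.5 CPM (SD 183.8), a log2 ratio of -1.27, and at least 10 reads were present in 9.39% (5.57 to 14.6%) and 32.1% (25.4 to 39.3%) of cells. The maxima were of similar size, while cells with Cd40lg reads were fewer on the left. In p2 spleen 31.8% of cells had at least 10 Cd40lg reads.

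Il21 encodes interleukin-21, a cytokine of follicular helper cells that supports B cells. It ranged from 0 to 2224 CPM with a median of 0 CPM on the left and from 0 to 2208 CPM with a median of 63.5 CPM on the right. The means were 98.4 and 202 CPM, a log2 ratio of -1.03, and at least 10 reads were present in 30.4% (23.8 to 37.6%) and 55.4% (47.9 to 62.7%) of cells. Over well columns the shares ran from 12.5% to 57.1% on the left and from 40% to 68.8% on the right, so the ranges overlapped. In p2 spleen 36.9% of cells had at least 10 Il21 reads, at a mean of 110.9 CPM.

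Bhlhe40, a transcription factor that restrains Il10 in T cells, was the 1 of 13 tested Il10 regulators past 2-fold, a share near the 5.66% of all tested genes past 2-fold either way. It ranged from 0 to 1881 CPM on the left and from 0 to 1636 CPM on the right, with a median of 0 CPM in both. The means were 62.2 CPM (SD 252) and 173.6 CPM (SD 333), a log2 ratio of -1.47, and at least 10 reads were present in 13.3% (8.68 to 19.1%) and 36.96% (29.97 to 44.4%) of cells. On the left the 3 highest cells held 47.3% of its reads. The other regulators were within 2-fold, among them Maf at 646 and 624 CPM and Prdm1, which encodes Blimp-1, at 283 and 259 CPM.

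The list of secreted and surface ligands held 6 of 15 tested genes at least 2-fold lower and 0 higher, beside 3.08% and 2.58% of all tested genes. Besides Cd40lg and Il21 these were Ccl5, Ccl1, Lta and Xcl1. Ccl5, a chemokine of effector and memory T cells, had means of 767 and 1881 CPM and a log2 ratio of -1.29, with at least 10 reads in 23.2% (17.3 to 30.04%) and 30.98% (24.4 to 38.2%) of cells. These intervals overlap, and the 3 highest cells held 35.2% and 32.6% of the Ccl5 reads. Ccl1, a ligand of CCR8, had at least 10 reads in 2 and 7 cells, and Lta, which encodes lymphotoxin alpha, in 3 and 9 cells. All Xcl1 reads came from 1 cell on the right, so Xcl1 passed the level filter only through that set. The count of 6 therefore describes the tested members. Tnfsf8, the ligand of CD30, was within 2-fold in mean level at 462 and 672 CPM, but its share was 28.2% against 49.5%.

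The remaining genes with shares at least 20 points lower were Itgb1, Lgals3, Farp1, Cox17 and Tspan14. Itgb1, the beta 1 integrin chain, had at least 10 reads in 37.02% and 58.2% of cells, with means of 201 and 407 CPM, and in p2 spleen 43.02% of cells did. Lgals3, which encodes galectin 3, had them in 20.99% and 42.4%, with means of 129.985 and 279 CPM. Farp1 had them in 28.2% and 51.6%. Cox17, a copper chaperone of cytochrome c oxidase, had them in 50.8% and 74.5%, and in 56.4% in p2 spleen. Tspan14, a tetraspanin, had them in 30.4% and 51.1%.

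The 12 largest ratios toward columns 13-24 among genes detected in at least 20% of its cells were led by Ece1, endothelin converting enzyme, at 18.03 and 53.2 CPM (log2 ratio -1.51), ahead of Bhlhe40. Sorl1, a sorting receptor, followed at 34.2 and 94.3 CPM (-1.44), and then Ccl5 and Cd40lg. Lpar3, a receptor for lysophosphatidic acid, was at 64.02 and 155.45 CPM (-1.27) with at least 10 reads in 11.05% and 28.8% of cells. Itpr1, the calcium channel gated by inositol trisphosphate, was at -1.23, the tetraspanin Cd9 at -1.22, Sytl3 at -1.21, and Rbpj, the DNA-binding partner of Notch, at -1.19. Tm2d2 at -1.16 and the scramblase Plscr1 at -1.13 closed the list.

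Some genes with large ratios toward columns 13-24 belonged to few cells. Of the Th2 genes, those of helper cells of type 2 immunity, 3 of 6 tested were at least 2-fold lower in columns 1-12 and 0 were higher, beside 3.08% and 2.58% of all tested genes. Il1rl1, the receptor for interleukin-33, had at least 10 reads in 5 cells on the left and in 23 cells, or 12.5% (8.09 to 18.2%), on the right, with means of 12.4 and 123.9 CPM (log2 ratio -3.22). Il4 had them in 3 and 17 cells, with means of 3.49 and 33.4 CPM (-2.94), and Il5 in 3 and 9 cells, with means of 10.2 and 127.1 CPM (-3.52). For Il5 the 3 highest cells on the right held 89.9% of its reads. Il4 passed the level filter only through columns 13-24, where it was high, so the count of Th2 genes describes the tested members. Gata3, the lineage factor of Th2 cells, was within 2-fold at 76.5 and 113.5 CPM. In p2 spleen Il1rl1 was at 2.4995 CPM and Il5 at 0 CPM.

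Of 15 interferon-stimulated genes, all tested, 5 were at least 2-fold lower in columns 1-12 and 0 higher, beside 3.08% and 2.58% of all tested genes. Ifit1, an RNA-binding antiviral protein, had means of 13.8 and 73.4 CPM, with at least 10 reads in 3.87% and 7.61% of cells. Ifit3, Mx1, Rsad2 and Oasl2, antiviral effectors as well, had at least 10 reads in 3.80% to 7.61% of cells on the right. The 3 highest cells on the right held between 64.2% and 82.8% of the reads of these 5 genes, so that the ratios describe a handful of cells. A gene could pass the level filter through the right set alone, so the count describes the tested members.

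The cytotoxic list had 2 of 11 tested genes at least 2-fold lower, beside 3.08% of all tested genes, the share to set beside the Th17 and T cell receptor response counts as well. These were the natural killer receptors Klrd1, with at least 10 reads in 3 and 13 cells, and Klrk1, with 0 reads in columns 1-12 (exact interval 0 to 2.02%) and at least 10 in 7 cells in columns 13-24. Gzmb, which encodes granzyme B, had at least 10 reads in 39.2% and 39.1% of cells. The Th17 list had 3 of 5 tested genes lower, Il17f, Il23r and Ccr6, each with at least 10 reads in 6 cells or fewer of either set. Of the T cell receptor response genes 2 of 19 were lower, Egr2 at 51.2 and 124.9 CPM and Nr4a2 at 7.77 and 26.5 CPM. Egr2 was detected in nearly equal shares, 15.5% and 16.3%. Klrk1 and Nr4a2 passed the level filter only through columns 13-24, and other genes could, so these counts describe the tested members.

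Trafficking receptors went both ways, with 2 of 15 tested genes higher and 2 lower, beside 2.58% and 3.08% of all tested genes. Ccr9, the gut-homing chemokine receptor, had means of 137.5 and 26.8 CPM, a log2 ratio of 2.32, and at least 10 reads in 25 cells (13.8%, 9.14 to 19.7%) against 8 cells (4.35%, 1.90 to 8.39%). Its mean in the small intestine was 1065 CPM. The other higher gene was Itgae, and the lower genes were Itgb1 and Ccr6. Itgae passed the level filter only through the left set, and Ccr6 only through the right set, where each was high. The counts of trafficking receptors therefore describe the tested members.

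No gene passed 2-fold among the tested members of several lists, beside 5.66% of all tested genes, a share at which a short list can hold none. These were the suppressive mediators, of which 10 were tested, the co-inhibitory receptors, 9, the Th1 genes, 9, and the genes of naive and central memory cells, 11. The S phase genes, 12, the G2M phase genes, 14, the glycolysis genes, 16, the endoplasmic reticulum folding genes, 15, and the sterol and fatty acid synthesis genes, 14, were likewise within 2-fold. So were the heat shock genes, 8, the T cell identity genes, 9, and the ribosomal protein genes, 59. Lag3, a co-inhibitory receptor, was at 2741 and 2903 CPM, and Tbx21, the Th1 lineage factor T-bet, at 258 and 224 CPM. The G2M list had a median log2 ratio of 0.26, and the ribosomal list one of -0.09. Without a test these values do not show that the lists were equal in both sets.

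Most markers of other cells were detected in few cells. None of 6 B cell markers and none of 4 erythroid markers reached 10 CPM, with Ms4a1, Hbb-b1 and Hba-a1 listed at 0 reads in both, while Cd79b had at least 10 reads in 8 and 4 cells and Alas2 in 1 and 3. A count near 0 in these tables does not show that a transcript is absent, since Rpl30, a ribosomal protein gene that every cell uses, had a read in only 5 and 3 cells. The summed B cell markers ranged over cells from 0 to 289 CPM on the left and from 0 to 444 CPM on the right, and the summed erythroid markers from 0 to 38.8 and from 0 to 63.5 CPM. Of 12 myeloid and dendritic cell markers with a row, 3 were tested and 2 were at least 2-fold lower in columns 1-12, beside 3.08% of all tested genes. These were H2-Aa and Xcr1, and the summed list ranged from 0 to 875 and from 0 to 1571 CPM. H2-Aa had at least 10 reads in 1 and 5 cells, and Xcr1 in 7 and 15. Both passed the level filter only through columns 13-24, so the count of 2 describes the tested members. The third tested marker, Cd68, a lysosomal protein abundant in macrophages, had them in 8.84% and 14.1% of cells, at means of 22.9 and 29.2 CPM (log2 ratio -0.34). Of 4 CD8 and NK cell markers, Cd8a was high in 1 cell of columns 1-12, which held 99.5% of its reads there. Cd8b1 was detected more widely, in 11.6% and 13.6% of cells at means of 40.3 and 23.99 CPM (log2 ratio 0.72), and the summed list ranged from 0 to 5899 and from 0 to 947 CPM. Epcam, an adhesion molecule of epithelia that T cells can also carry, had at least 10 reads in 13.3% and 6.0% of cells and was the 1 tested gene of 6 epithelial markers, whose sum ranged from 0 to 1306 and from 0 to 705 CPM. Whether such cells had a part in the ratios above was not tested.

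The labels name no sex. Xist, the transcript of the inactive X chromosome, had at least 10 reads in 0.552% of cells on the left and 0.543% on the right, and Eif2s3y, a Y-linked gene, in 48.1% and 41.8%, so neither side stood apart in these genes. The eGFP row, which reports Il10 and was left out of the library sums, had at least 10 reads in 54.1% (46.6 to 61.6%) and 51.1% (43.6 to 58.5%) of cells.

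The well sets were also compared over cells with no Foxp3 read, 62 cells on the left and 77.7% of the cells on the right. A cell with no Foxp3 read may still hold Foxp3 transcripts, and such cells need not be equally frequent on both sides. Why ratios changed in these cells was not tested. Of the regulatory T cell list 3 of 16 tested genes were at least 2-fold higher in them and 2 lower, with a median log2 ratio of 0.15. With fewer cells, more of all tested genes were called, 534 higher (6.04%) and 685 lower (7.75%) of 8842. Tnfrsf4 was at 2067 and 2017 CPM (log2 ratio 0.04) and Tnfrsf9 at 486 and 322 CPM (0.59). Il2ra was lower on the left in these cells, at 137.5 and 355 CPM (-1.36), opposite to its direction over all cells. Ikzf2 kept a similar ratio of 0.53, at 214 and 148.2 CPM.

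Several of the ligands and regulators that were lower in columns 1-12 had ratios nearer to 0 in cells with no Foxp3 read. The numbers of Th2 and interferon-stimulated genes called lower did not fall. Il21 was at 244 and 232 CPM, with at least 10 reads in 64.5% (51.3 to 76.3%) and 62.2% (53.7 to 70.2%) of cells. Cd40lg was at 80.7 and 97.9 CPM (log2 ratio -0.28), Bhlhe40 at 136.9 and 197 CPM (-0.52), Ccl5 at 1836 and 2164 CPM (-0.24) and Lpar3 at 170.5 and 190.3 CPM (-0.16). Of the Th2 genes 3 of 6 were lower in these cells, beside 7.75% of all tested genes, with Il1rl1 at 11.97 and 137.3 CPM (-3.41). The Th2 median log2 ratio was -1.44, nearer to 0 than the -1.75 over all kept cells. Of the interferon-stimulated genes 7 of 15 were lower, beside the same 7.75%, with a median log2 ratio of -0.66 against -0.45 over all kept cells. More genes of any kind were called in these fewer cells, and a handful of cells can carry the interferon-stimulated ratios.

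**Figure D5:**
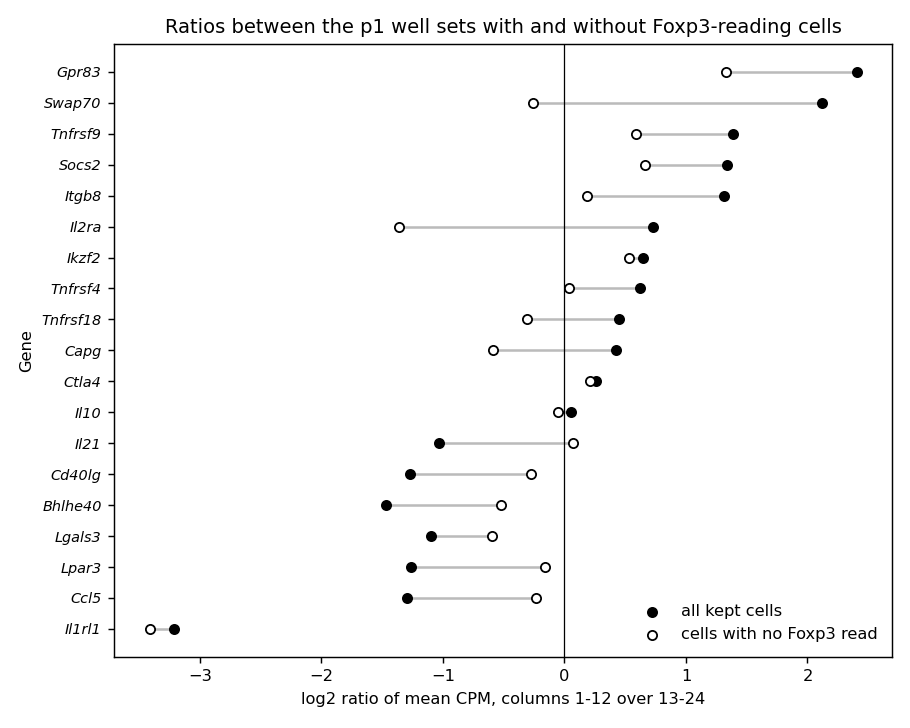
Log2 ratio of mean CPM, columns 1-12 over 13-24 (x axis), for named genes (y axis) over all kept cells (filled circles) and over the cells with no Foxp3 read (open circles). Il21 moves from -1.03 to 0.07, Tnfrsf4 from 0.62 to 0.04 and Il2ra from 0.73 to -1.36, while Il1rl1 stays below -3.

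Cells with at least 10 Foxp3 reads, 57.5% of those on the left and 28 cells on the right, were set side by side in the same way. Foxp3 chose these cells and was at 465 and 478 CPM. Il2ra was at 915 CPM (SD 865) on the left and 429.7 CPM (SD 458) on the right, with at least 10 reads in 90.4% (83.03 to 95.3%) and 71.4% (51.3 to 86.8%) of cells. Tnfrsf9 was at 1314 and 640.2 CPM, and Ctla4 at 5245 and 7551 CPM, the opposite order. Ikzf2 was present in 69.2% and 67.9% of these cells and Il10 in 96.2% and 96.4%. Il21, Cd40lg and Bhlhe40 were scarce in them on the left, with at least 10 reads in 5.77%, 1.92% and 4.81% of cells. On the right they had at least 10 reads in 17.9%, 14.3% and 21.4%. These are 5, 4 and 6 of only 28 cells, so the shares on the right are uncertain.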

How the data were processed

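Per the labels, single-cell libraries were made with SMART-seq2. The authors aligned paired-end reads with STAR and deposited raw read counts per gene and cell, and no counting tool or annotation is given in the sources used here. The submitters' notes name mm10 and the methods another build, so no coordinates are given. Of the gene rows, 88 join several gene names. Cells entered with at least 160000 reads over gene rows, without the eGFP row (0.00901% of p1 reads). CPM, means over cells, log2 ratios (pseudocount 1 CPM, mean of at least 10 CPM in either set) and shares with at least 10 reads (95% Clopper-Pearson intervals) were computed with Python 3.11.15, numpy 2.4.6, scipy 1.17.1 and pandas 2.3.3. TMM and DESeq2 scaling used edgeR 4.0.16 and DESeq2 1.42.0 in R 4.3.3. Since the labels name no animal, each well set was 1 sample, no test was run, and genes were called at 2-fold or at 20 percentage points of share. The ratio script was tested on simulated data. No 2 cells had identical columns, and no doublet caller was run on sorted wells. Named genes were the 4 markers, list members past 2-fold (otherwise defining members), and the 12 largest ratios each way among genes detected in at least 20% of the higher set, whose higher share lay in that set, and in rows of 1 gene. Other genes, such as those past 20 points of share, were named after their values were seen. The well sets, markers and lists were chosen with earlier results of these data known. Alternatives changed the scaling, pseudocount, filters, depth, read minimum and cells entered.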

Additional observations from a re-analysis of the deposited data

Results flagged for a closer look

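Cells below the minimum of 160000 reads entered no comparison. Among the 11 such cells of columns 1-12, 9, or 81.8% (exact binomial 95% interval 48.2 to 97.7%), had at least 10 Foxp3 reads, and the library sums of the 11 were 33520 to 159010 reads. Among the 6 such cells of columns 13-24, 0 did (exact binomial 95% interval 0 to 45.9%). This result stands out because the signal lies in cells that the report left out, and it is on the same side of the plate as in the kept cells.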

How the results depend on the processing

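No paired analysis was possible because the result comes from no test and the labels give no replicate shared between the sets. TMM, DESeq2 and median centring left the counts (not the ratios of single genes) of 226 higher and 270 lower genes within 1.5 times, and so did summed reads, thinning, a pseudocount of 0.1 CPM, leaving out the highest 5% of cells per gene, and minima of 100000 or 200000 reads. A pseudocount of 10 CPM gave 51 and 83 genes, a mean filter of 1 CPM 722 and 832, and one of 50 CPM 32 and 52, since these settings let in or damp genes of low level. Without cells with 10 reads of Mki67 or Top2a the counts were 565 and 552, with fewer cells in each mean, 25 and 16 genes differed by 20 points of share, and Il5 (log2 ratio 1.90) and Lta (0.21) changed sign. In cells with no Foxp3 read the counts were 534 and 685, those of shares 3 and 19, the regulatory T cell list had a median of 0.15, and Il21 (0.073) and Klrg1 (-1.63) changed sign. The cause was not tested. Genes with a share 20 points higher numbered 8 at a minimum of 100000 reads per cell, 3 after thinning, 11 when 1 read counted and 8 when 5 reads did. With 1 read the Foxp3 shares were 65.7% and 22.3%. When the highest 5% of cells were left out, 21 of the 57 named genes fell under the level filter, and of the other 36, 27 moved, mostly further from 0, and 2 called genes came under 2-fold. Foxp3 went to 3.05, Bhlhe40 to -2.98, Ccl5 to -2.79, Cd40lg to -2.83 and Ccr9 to 5.16. This setting removes a larger part of the expressing cells from the set that has fewer of them. Such moves further from 0 therefore follow from the shares of expressing cells and add no support. No difference could be set against the spread between animals, and genes detected in few cells are the least certain.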
